A study of Homo sapiens with 24 samples.

Results

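Ferritin and the other genes of cellular iron handling were followed in 3 estrogen receptor-positive (ER+) breast cancer cell lines grown under low or high glucose. The set comprised 10 genes, FTL, FTH1, TFRC, SLC40A1, SLC11A2, SLC39A14, NCOA4, IREB2, ACO1 and HFE, each found by its symbol among the 18889 genes of the expression table. It was chosen on measured values, because ferritin was already known to differ between the glucose conditions in these cultures. Its differences between conditions and between lines are therefore given as descriptions without p-values.

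HCC1500, MDA-MB-175 and ZR-75-30 are established human breast carcinoma lines, which were cultured for 48 hours with 5 mM glucose (low glucose, the control condition) or 25 mM glucose (high glucose, modelling hyperglycemia). The medium was serum-free in both conditions, and whether an osmolarity control was run beside these RNA-Seq cultures is not given in the sources used here. With 4 cultures in each of 6 groups, 24 profiles were measured. Nothing in the labels says whether the 4 cultures of a group were grown on separate occasions, so the errors below measure the spread between these samples, which may be technical. Values are normalized read counts, that is, whole reads divided by 1 factor per sample, and means are given ± SD.

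Cells take up iron bound to transferrin through transferrin receptor 1 (TFRC), move ferrous iron across membranes with the transporters encoded by SLC11A2 and SLC39A14, and release it through ferroportin (SLC40A1). Iron that is not in use is stored inside ferritin, a shell built from heavy chains (FTH1), which oxidize the metal, and light chains (FTL), which favor its deposition, and the cargo receptor NCOA4 carries ferritin to the lysosome when the iron is needed. When iron is scarce, the iron regulatory proteins encoded by ACO1 and IREB2 bind hairpins called iron-responsive elements in mRNAs. A hairpin in the 5′ UTR then blocks translation, and hairpins in the 3′ UTR protect the mRNA from decay. Because ferritin is also regulated at translation, transcript levels are not a measure of the protein.

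These hairpins are shown because they are the elements through which iron regulates the ferritin, ferroportin and transferrin receptor mRNAs. The pattern searched was an unpaired C, a stem of 5 bases, the loop CAGTGN with a last base other than G, and 5 bases pairing back to the stem, with G-U pairs allowed. It was found in the UTRs of the canonical transcripts of 4 of the 10 genes. FTL, FTH1 and SLC40A1 each carried 1 in the 5′ UTR, and TFRC carried 4 in the 3′ UTR. Of 20016 canonical protein-coding transcripts, 0.05% held the pattern in the 5′ UTR and 0.495% in the 3′ UTR, and only 2 held more than 1 in the 3′ UTR. The sequences below run 5′ to 3′ with 6 flanking bases on each side and the loop in capitals, and their coordinates are GRCh37. The element of FTH1 lay in its 5′ UTR at chr11:61735046-61735074, minus strand. For the other 6 genes no match says only that these letters were not in the canonical transcript, and a transcript form of SLC11A2 is known to carry such an element in its 3′ UTR.
FTL, 5′ UTR, chr19:49468592-49468620, plus strand: ctcttgcttcaaCAGTGTttggacggaac
SLC40A1, 5′ UTR, chr2:190445387-190445415, minus strand: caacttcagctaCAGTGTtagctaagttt
TFRC, 3′ UTR, element 1, chr3:195777850-195777878, minus strand: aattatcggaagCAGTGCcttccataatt
TFRC, 3′ UTR, element 2, chr3:195777446-195777474, minus strand: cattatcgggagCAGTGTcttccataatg
TFRC, 3′ UTR, element 3, chr3:195777381-195777409, minus strand: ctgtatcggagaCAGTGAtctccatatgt
TFRC, 3′ UTR, element 4, chr3:195777334-195777362, minus strand: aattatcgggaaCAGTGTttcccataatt

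The recovered reads ranged from 9140024 to 17998819 per sample, and in HCC1500 the low glucose cultures (at least 13190982 reads) were all deeper than the high glucose cultures (at most 12140912 reads). All 7 epithelial and luminal markers examined, among them EPCAM, KRT8 and ESR1, were detected in every sample, whereas of the markers of other cell types DCN (fibroblasts) did not exceed 2.04, COL3A1 22.9, VWF (endothelium) 55.6 and CD68 (macrophages) 43.9, and COL1A1 lay between 67.1 and 256. PTPRC and PECAM1 were not analysed here. ALB, the hepatocyte marker albumin, averaged 3666 in HCC1500 and 1.89 or less in the other lines, and its part in the results was not tested. The samples of 1 group did not all resemble each other. In HCC1500, high glucose replicate 3 was above the other 3 high glucose cultures for short transcripts, with a median log2 deviation of 1.25 over the 949 genes with a canonical transcript of up to 1000 bases, and below them for long transcripts, with a median of -0.77 over the 1059 genes above 8000 bases. Most of the iron handling genes deviated in the direction of their length class, some of them by more than most genes of that class. FTL (871 bases) deviated by 1.41 and FTH1 (1203 bases) by 1.46, whereas TFRC (5012 bases) deviated by -0.51, IREB2 (6324 bases) by -0.73 and HFE (5176 bases) by -0.80. FTH1 lay above the middle 50% of genes of 1000 to 2000 bases, which ended at 1.21. IREB2, HFE and SLC39A14 (4663 bases, -0.62) lay below the middle 50% of genes of 4000 to 8000 bases, which began at -0.59. ACO1 (7443 bases), at 0.06, lay within the middle 50% of genes of its length. NCOA4 (3461 bases), at -0.38, and SLC40A1 (3330 bases), at -0.23, lay below the middle 50% of genes of 2000 to 4000 bases, whose median was 0.41. HCC1500 changes are therefore given with and without this culture.

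**Figure D1:**
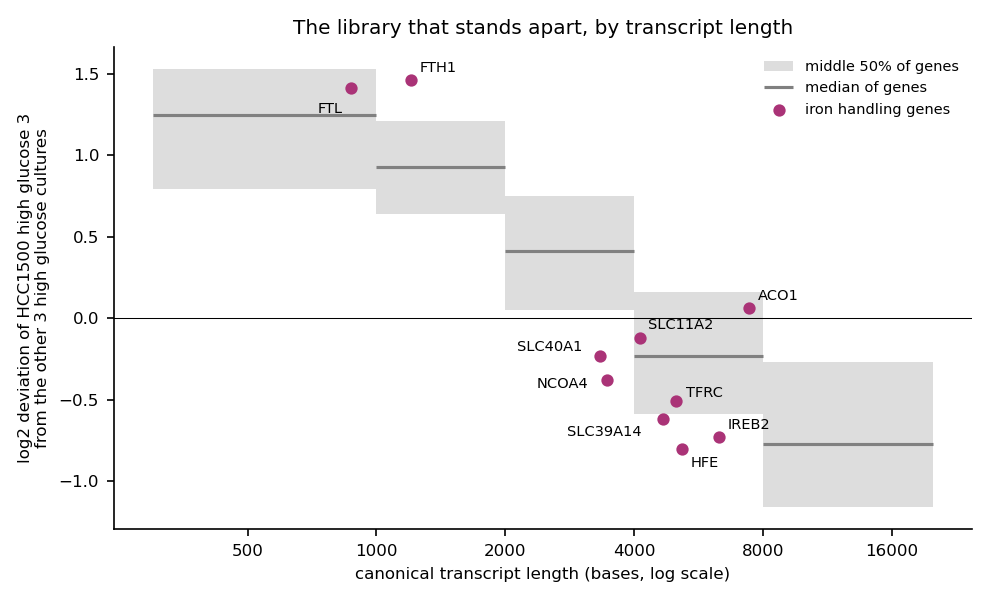
Deviation of HCC1500 high glucose replicate 3 from the mean of the other 3 high glucose cultures (log2, y axis) against canonical transcript length (bases, log scale). Grey boxes span the middle 50% of genes in each length class and grey lines their medians, which run from 1.25 in the shortest class to -0.77 in the longest, and points are the 10 iron handling genes, with FTL and FTH1 above 1.4 and HFE lowest at -0.80.

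The ferritin light chain transcript was higher under high glucose in all 3 lines. FTL (ENSG00000087086, chr19:49468566-49470136, plus strand, 4 exons) measured 1608, 1465, 1620 and 1328 in the MDA-MB-175 low glucose cultures and 3068, 2718, 2697 and 2913 in the high glucose cultures. The conditions did not overlap, and the means of 1505 ± 138 and 2849 ± 175 (SD, n = 4 each) differed 1.89-fold, a log2 change of 0.92 (SE 0.06). In these bulk samples a higher level per cell and a larger share of expressing cells cannot be told apart. In ZR-75-30, FTL measured 2535, 2533, 2639 and 2395 at low and 6984, 6994, 7222 and 6450 at high glucose. The conditions again did not overlap, and the log2 change was 1.45 (SE 0.04), or 2.74-fold. In HCC1500 the low glucose cultures measured 2372, 2676, 2454 and 2630, and the high glucose cultures 5986, 5454, 15315 and 5871. The value of 15315 belongs to replicate 3. With it the log2 change was 1.54 (SE 0.30), and without it 1.19 (SE 0.04), or 2.28-fold, with no overlap in either case.

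The ferritin heavy chain transcript was also higher under high glucose, by less than FTL in ZR-75-30 and HCC1500. FTH1 (ENSG00000167996, chr11:61727190-61735106, minus strand, 4 exons) measured 3702, 3538, 3527 and 3461 in the low glucose cultures of MDA-MB-175, against 6689, 6337, 6214 and 6203 at high glucose. The 4 high cultures were all above the low ones, with a log2 change of 0.84 (SE 0.04), or 1.79-fold. In ZR-75-30 it measured 18175, 16801, 17746 and 18376 at low and 27810, 25647, 26032 and 24003 at high glucose. These conditions did not overlap, and the log2 change was 0.54 (SE 0.05), or 1.46-fold. In HCC1500 it measured 10909, 10793, 11554 and 10962 at low and 14186, 13828, 38458 and 13952 at high glucose. Replicate 3 was again the high value, and the log2 change of 0.70 (SE 0.31) with it became 0.34 (SE 0.02), or 1.27-fold, without it. FTH1 shares 1267 exon bases with BEST1 on the other strand, and BEST1 did not exceed 24.5 in any sample. The study's methods name a stranded library kit, but whether the counting used strand is not given in the sources used here, so reads of these genes may not have been separated in the shared part.

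**Figure D2:**
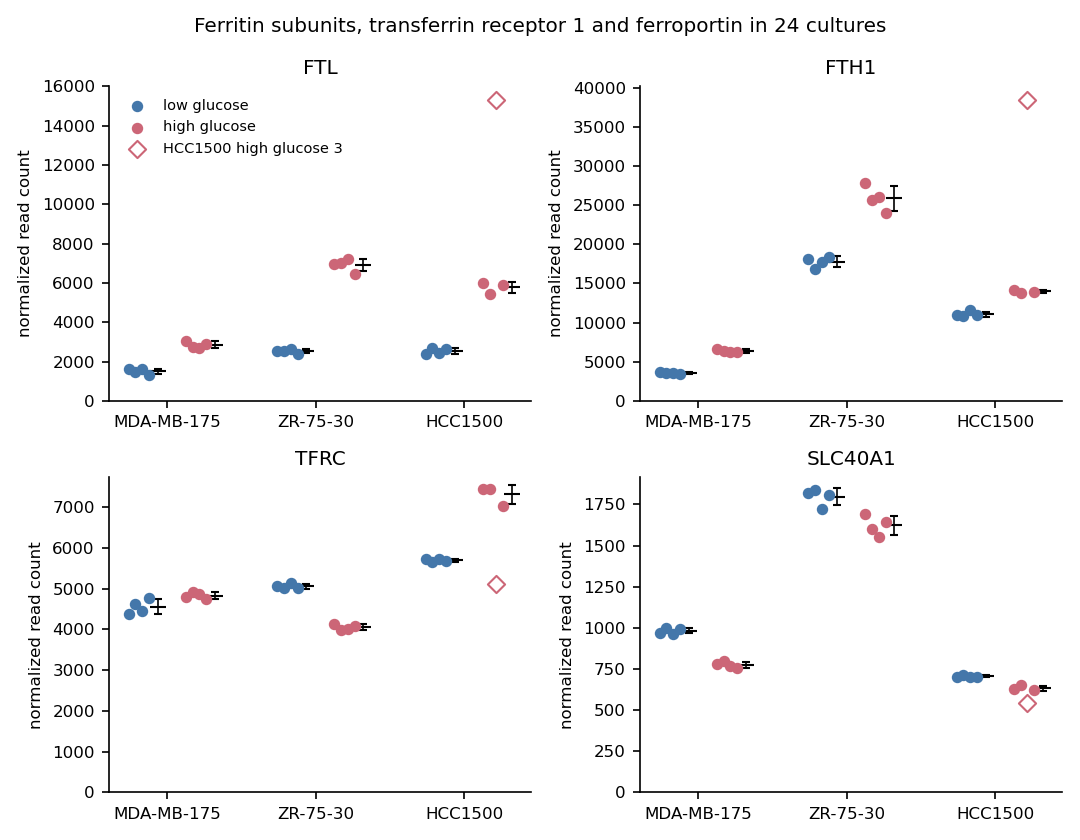
Normalized read count (y axis, starting at 0) of FTL, FTH1, TFRC and SLC40A1 in each of the 24 cultures, low glucose in blue and high glucose in red. Bars give mean ± SD of 4 cultures (3 for HCC1500 high glucose, without the open diamond, replicate 3). FTL and FTH1 are higher at high glucose in each line, whereas TFRC is lower in ZR-75-30 and higher in 3 of the 4 HCC1500 cultures.

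The ratio of heavy to light chain does not depend on how samples were scaled to each other. Per kilobase of canonical transcript, the FTH1 to FTL ratio was 5.11 ± 0.35 in ZR-75-30 at low glucose and 2.71 ± 0.12 at high glucose. In HCC1500 the ratio was 3.17 ± 0.24 at low and 1.77 ± 0.06 at high glucose, and 1.76 ± 0.07 without replicate 3. The individual ratios in the HCC1500 high glucose cultures were 1.72, 1.84, 1.82 and 1.72, so the culture that stood apart in both genes did not stand apart in their ratio. In these lines no high glucose culture reached the lowest low glucose ratio of its line. In MDA-MB-175 the ratio was 1.72 ± 0.13 at low and 1.62 ± 0.07 at high glucose, and the conditions overlapped.

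Among the uptake genes, transferrin receptor 1 lay in opposite directions in ZR-75-30 and HCC1500, a difference that was not tested. TFRC (ENSG00000072274, chr3:195739382-195809024, minus strand, 19 exons) measured 4377, 4637, 4453 and 4769 in the low glucose cultures of MDA-MB-175, against 4798, 4911, 4872 and 4738 at high glucose. These conditions overlapped, with a log2 change of 0.08 (SE 0.04). In ZR-75-30 it measured 5055, 5021, 5133 and 5008 at low and 4135, 3989, 4022 and 4091 at high glucose, so that every high glucose culture was lower, with a log2 change of -0.32 (SE 0.03), or 0.803-fold. In HCC1500 it measured 5735, 5663, 5727 and 5672 at low and 7442, 7458, 5119 and 7038 at high glucose. Of the high glucose cultures 3 were above all the low ones, and replicate 3 was below them. The log2 change was 0.23 (SE 0.13) with that culture and 0.36 (SE 0.02), or 1.28-fold, without it. Set against FTH1 within each culture and per kilobase, TFRC was 0.308 ± 0.020 at low and 0.182 ± 0.007 at high glucose in MDA-MB-175, and in ZR-75-30 it was 0.068 ± 0.003 at low and 0.038 ± 0.002 at high glucose. In HCC1500 it was 0.124 ± 0.003 at low and 0.102 ± 0.047 at high glucose, or 0.125 ± 0.004 without replicate 3.

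The transporter SLC39A14 (ZIP14), which carries iron not bound to transferrin, was higher under high glucose in HCC1500. It measured 273, 292, 283 and 289 at low and 481, 485, 310 and 463 at high glucose there. No culture overlapped, replicate 3 was the lowest of the high glucose cultures, and the log2 change was 0.59 (SE 0.15) with it and 0.74 (SE 0.04), or 1.67-fold, without it. In MDA-MB-175 the means were 335 ± 13 and 368 ± 9, a log2 change of 0.13 (SE 0.05) without overlap. In ZR-75-30 they were 285 ± 16 and 286 ± 24, which overlapped. SLC11A2, which encodes the divalent metal transporter DMT1, overlapped between conditions in every line, with log2 changes of 0.04 (SE 0.08) in HCC1500 (0.07, SE 0.04, without replicate 3), 0.02 (SE 0.04) in MDA-MB-175 and 0.01 (SE 0.05) in ZR-75-30.

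Ferroportin, the iron exporter, was lower under high glucose in all 3 lines. SLC40A1 (ENSG00000138449, chr2:190425316-190448484, minus strand, 8 exons) measured 972, 999, 965 and 994 in the low glucose cultures of MDA-MB-175, against 781, 797, 770 and 753 at high glucose. Every high glucose culture was below every low one, and the log2 change was -0.34 (SE 0.04), or 0.789-fold. In ZR-75-30 the cultures measured 1818, 1837, 1720 and 1809 at low and 1690, 1603, 1555 and 1643 at high glucose, without overlap and with a log2 change of -0.15 (SE 0.04). In HCC1500 they measured 700, 714, 703 and 701 at low and 627, 652, 541 and 624 at high glucose, also without overlap, with a log2 change of -0.21 (SE 0.08), or -0.15 (SE 0.03) without replicate 3. The median of all genes without that culture was -0.12 in HCC1500, and after rescaling these 7 cultures by median-of-ratios factors the change of SLC40A1 was -0.03. HFE, a membrane protein that binds transferrin receptor 1 and takes part in the control of hepcidin, measured 332, 334, 325 and 334 in ZR-75-30 at low and 490, 408, 457 and 407 at high glucose. The conditions did not overlap, and the log2 change was 0.41 (SE 0.06), or 1.33-fold. HFE overlapped between conditions in the other lines, with log2 changes of 0.12 (SE 0.08) in MDA-MB-175 and -0.39 (SE 0.21) in HCC1500, or -0.19 (SE 0.12) without replicate 3. HFE shares 430 exon bases with the histone gene H2BC4 on the other strand, listed between 14.2 and 148 in these samples.

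The ferritin cargo receptor NCOA4 was called in no line in the main limma fit. With all cultures it was called in MDA-MB-175 with median-of-ratios scaling (0.12), edgeR, DESeq2 or sample weights. In ZR-75-30 it was called with median-of-ratios scaling (0.087). Its low and high glucose means were 1512 ± 40 and 1620 ± 38 in MDA-MB-175, which differed by 0.10 on the log2 scale (SE 0.04). The ZR-75-30 means were 2482 ± 23 and 2598 ± 67, a change of 0.06 (SE 0.03). Those of HCC1500 were 1483 ± 22 and 1464 ± 182, a change of -0.03 (SE 0.10), or 0.07 (SE 0.03) without replicate 3, when the high glucose mean was 1553 ± 43 (n = 3). The conditions did not overlap in ZR-75-30, MDA-MB-175 and, without replicate 3, HCC1500, with high glucose above. In HCC1500 without that culture, the change of NCOA4 was 0.09 after scaling to CPM, 0.19 after median-of-ratios scaling and by DESeq2, and 0.18 by edgeR, and it was called in each of these. SLC11A2 (0.19 to 0.20) and IREB2 (0.15 to 0.16) were called there as well with median-of-ratios scaling, edgeR and DESeq2, settings that were chosen after seeing the data. FTH1 set against NCOA4 within each culture, per kilobase, was 6.77 ± 0.28 at low and 11.3 ± 0.4 at high glucose in MDA-MB-175. The same ratio was 20.6 ± 0.8 and 28.7 ± 1.5 in ZR-75-30, and for HCC1500 it was 21.4 ± 0.5 and 42.6 ± 33.3, or 25.9 ± 1.0 at high glucose without replicate 3.

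Of the iron regulatory proteins, ACO1 (the cytosolic aconitase that becomes iron regulatory protein 1 when it lacks its iron-sulfur cluster) was lower under high glucose in HCC1500. It measured 429, 420, 427 and 429 at low and 330, 339, 346 and 324 at high glucose. The conditions did not overlap, replicate 3 was the highest of the high glucose cultures, and the log2 change was -0.35 (SE 0.07), or -0.36 (SE 0.04) without it. In MDA-MB-175 (314 ± 16 and 285 ± 7) and ZR-75-30 (104 ± 10 and 114 ± 7) the conditions overlapped, with log2 changes of -0.14 (SE 0.05) and 0.13 (SE 0.09). IREB2, which encodes iron regulatory protein 2, had log2 changes of -0.12 (SE 0.05) in ZR-75-30, -0.05 (SE 0.06) in MDA-MB-175 and -0.14 (SE 0.17) in HCC1500, or 0.04 (SE 0.04) without replicate 3. Its conditions overlapped in every line.

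**Figure D3:**
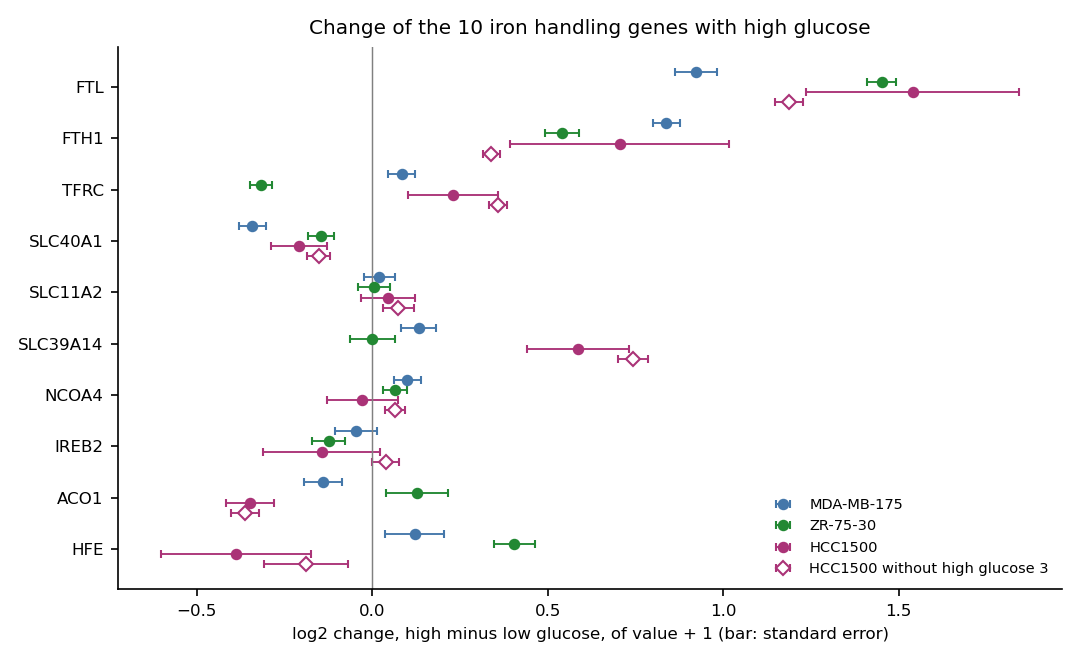
Log2 change from low to high glucose of value + 1 (x axis, points with standard error bars) for the 10 iron handling genes in each line, with HCC1500 also drawn without high glucose replicate 3 (open diamonds). FTL has the largest change in every line (0.92, 1.45 and 1.54, or 1.19 without that culture), and TFRC lies on opposite sides of 0 in ZR-75-30 (-0.32) and HCC1500 (0.36 without it).

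A gene was called when its Benjamini-Hochberg adjusted p in limma was under 0.05. In MDA-MB-175, 2 of the 10 genes were called higher (FTL and FTH1), where 11.9% of all 17029 tested genes were, and 1 lower (SLC40A1), where 13.7% were. In ZR-75-30, 3 were called higher (FTL, FTH1 and HFE), against 23.4% of 15834 genes, and 3 lower (TFRC, SLC40A1 and IREB2), against 22.7%. In HCC1500, 2 were called higher (FTL and SLC39A14), against 7.46% of 16361 genes, and 1 lower (ACO1), against 13.0%. Without replicate 3, 4 were called higher (FTL, FTH1, TFRC and SLC39A14), against 20.9% of 16235 genes, and 2 lower (SLC40A1 and ACO1), against 37.7%. Conditions did not overlap, with high glucose above, for 4 genes in ZR-75-30 (20.9% of all tested genes), 4 in MDA-MB-175 (12.7%) and 3 in HCC1500 (13.7%), or 5 without replicate 3 (21.0%). With high glucose below, they did not overlap for 1 gene in MDA-MB-175 (13.9% of all), 2 in ZR-75-30 (21.1%) and 2 in HCC1500 (18.7%, or 2 and 37.1% without replicate 3). Since the genes were chosen on these contrasts, nothing is read from these counts. Over the 10 genes the median log2 change was 0.01 in HCC1500 (-0.06 over all tested genes), or 0.07 (-0.12) without replicate 3, 0.04 in ZR-75-30 (0.01) and 0.09 in MDA-MB-175 (-0.02).

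Not every call was kept when a single culture was left out. Since the genes were chosen on these contrasts, a kept call is a description and no further support. The calls of FTL in every line, of FTH1 in MDA-MB-175 and ZR-75-30, of SLC40A1 in MDA-MB-175 and ZR-75-30, of TFRC and HFE in ZR-75-30 and of ACO1 in HCC1500 were made without each single culture in turn. The call of SLC39A14 in HCC1500 was lost without each single culture other than replicate 3 at high glucose, and that of IREB2 in ZR-75-30 was lost without 6 of the 8 cultures. FTH1 in HCC1500 was called by edgeR and by DESeq2 on the recovered reads with replicate 3 in place. In MDA-MB-175, TFRC, NCOA4 and SLC39A14 were called as well without low glucose replicate 4, and ACO1 without low glucose replicate 1.

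The lines differed in these genes already at low glucose, the second comparison. All 10 genes were called different between ZR-75-30 and MDA-MB-175, where 73.1% of 17739 tested genes were, 9 between HCC1500 and MDA-MB-175, where 80.6% were, and 8 between HCC1500 and ZR-75-30, where 80.4% were. FTH1 spanned the widest range among the ferritin genes, from 3557 ± 103 in MDA-MB-175 to 11054 ± 340 in HCC1500 and 17775 ± 701 in ZR-75-30. The log2 differences from MDA-MB-175 were 1.64 (SE 0.03) for HCC1500 and 2.32 (SE 0.03) for ZR-75-30. FTL averaged 2533 ± 144 in HCC1500 and 2525 ± 100 in ZR-75-30, whose cultures overlapped, and 1505 ± 138 in MDA-MB-175.

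ACO1 and HFE showed the opposite order in ZR-75-30 and HCC1500. ACO1 was lowest in ZR-75-30 (104 ± 10) and highest in HCC1500 (426 ± 4), a log2 difference of 2.02 (SE 0.06). HFE was highest in ZR-75-30 (331 ± 4) and lowest in HCC1500 (59.9 ± 3.4), a log2 difference of -2.45 (SE 0.08). Ferroportin had the same order as HFE, at 1796 ± 52 in ZR-75-30, 982 ± 17 in MDA-MB-175 and 705 ± 6 in HCC1500. TFRC spread far less, from 4559 ± 178 in MDA-MB-175 through 5054 ± 56 in ZR-75-30 to 5699 ± 37 in HCC1500. Its difference between ZR-75-30 and MDA-MB-175 was 0.15 on the log2 scale as deposited and -0.086 after scaling to the sum of all reads (CPM), so its direction depends on the scaling, as does that of IREB2 for the same pair (0.18 and -0.059). TFRC was higher in HCC1500 than in ZR-75-30 by 0.17 as deposited and by 0.53 after scaling to CPM, and its call was lost with median-of-ratios scaling (0.025) and in edgeR (0.004). Between HCC1500 and ZR-75-30, FTL and SLC39A14 differed by 0.00 as deposited, by 0.36 and 0.35 after scaling to CPM, and by -0.14 and -0.15 after median-of-ratios scaling. For these pairs the median of all genes itself moved with the scaling, from -0.18 to -0.38 (ZR-75-30 against MDA-MB-175), from 0.06 to 0.18 (HCC1500 against MDA-MB-175) and from 0.25 to 0.56 (HCC1500 against ZR-75-30).

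Per kilobase of canonical transcript, the order of the 6 highest genes was the same in all 6 groups: FTH1, FTL, TFRC, NCOA4, SLC40A1 and SLC11A2. At low glucose FTH1 had 14775 ± 582 normalized reads per kilobase in ZR-75-30, 9189 ± 283 in HCC1500 and 2957 ± 85 in MDA-MB-175, and TFRC had 1008 ± 11, 1137 ± 7 and 910 ± 35. Neighbors in this order did not overlap between genes within a group, except for FTH1 and FTL in the HCC1500 high glucose cultures, where replicate 3 widened both ranges. At the low end, HFE was lowest in HCC1500 (11.6 ± 0.7 at low glucose) and MDA-MB-175 (26.7 ± 3.0), and ACO1 in ZR-75-30 (14.0 ± 1.3). Of all recovered reads, FTH1 took 0.245% in ZR-75-30, 0.0577% in MDA-MB-175 and 0.195% in HCC1500 at low glucose. At high glucose it took 0.347%, 0.102% and 0.319%. The last mean was raised by replicate 3, as the HCC1500 cultures ran from 0.248% to 0.525%, the highest being that replicate.

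**Figure D4:**
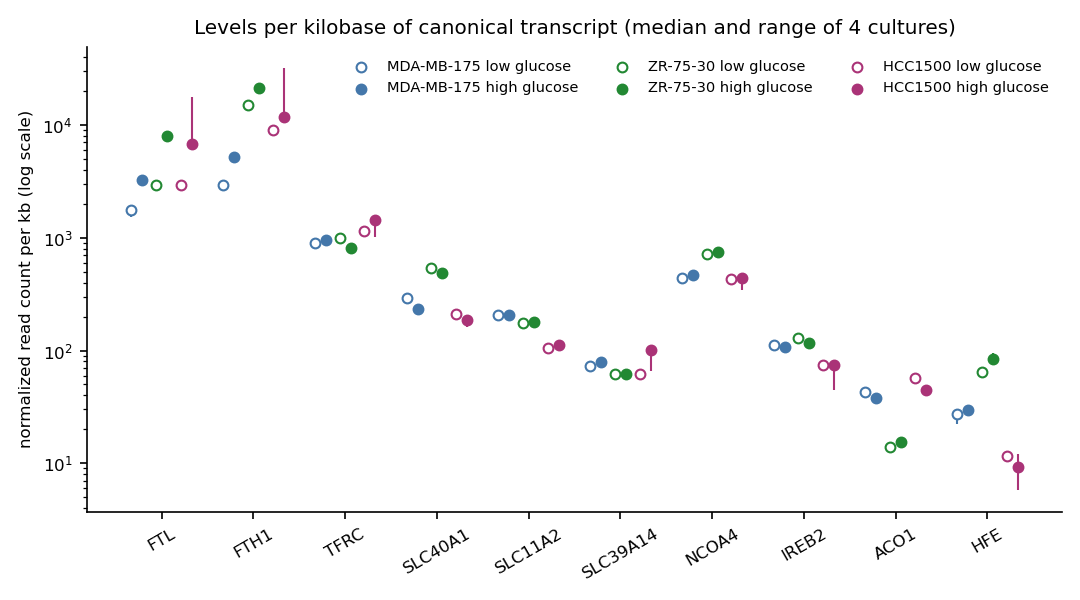
Normalized read count per kilobase of canonical transcript (log scale, y axis) of the 10 iron handling genes, as the median (circles, open at low and filled at high glucose) and range (lines) of 4 cultures in each line. FTH1 is the highest gene in each group, and ACO1 and HFE show opposite orders of ZR-75-30 and HCC1500.

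Ferritin genes have many processed copies in the genome, to which reads could be misassigned. The table listed 9 ferritin pseudogenes, 7 of FTH1 and 2 of FTL, and their summed reads were at most 0.468% of those of FTH1 and 0.374% of those of FTL in any sample. Those averaging at least 10 in a line were FTH1P10, which had 8.34 ± 4.90 at low and 15.9 ± 3.1 at high glucose in ZR-75-30, and FTH1P20, which had 8.01 ± 1.31 and 14.6 ± 3.0 there. They are uncertain, since the counting of reads that match several copies is not described.

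The wider pathway was described with 10 lists holding 91 symbols, of which 83 were in the table. FTMT and FTHL17, which made up the list of ferritin paralogs, TF, HAMP and 4 others were not analysed here. In MDA-MB-175, 22 of 82 tested genes were called (26.8%, 14 up and 8 down), where 25.7% of all tested genes were. In ZR-75-30, 42 of 79 were called (53.2%, 22 up and 20 down), against 46.0% of all. In HCC1500, 18 of 79 were called (22.8%, 11 up and 7 down), against 20.5% of all, and without replicate 3 there were 56 (70.9%, 18 up and 38 down), against 58.5% of all. Over the lists the median log2 change was -0.01 in ZR-75-30, 0.02 in MDA-MB-175 and 0.04 in HCC1500, or -0.13 without replicate 3, beside -0.12 over all genes without it. The adjusted p-values below are from limma and cover all tested genes. Because the lists were chosen with earlier results of these data known, and most genes named for their changes, these p-values are not independent evidence. Beside the list counts that follow, the shares of all tested genes that rose and fell were 7.46% and 13.0% in HCC1500 (20.9% and 37.7% without replicate 3), 23.4% and 22.7% in ZR-75-30, and 11.9% and 13.7% in MDA-MB-175.

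Among the genes of heme breakdown and transport, HMOX1, which encodes the heme oxygenase that frees iron from heme, rose in all 3 lines. It went from 57.1 ± 3.2 to 148 ± 11 in MDA-MB-175 (log2 change 1.36, SE 0.09, adjusted p = 1.1e-08), and from 142 ± 7 to 264 ± 17 in ZR-75-30 (0.88, SE 0.06, adjusted p = 3.0e-09). In HCC1500 it went from 116 ± 9 to 466 ± 189 (1.93, SE 0.23, adjusted p = 7.1e-04), or to 371 ± 5 without replicate 3 (1.67, SE 0.06, adjusted p = 1.9e-13). Its transcript of 1554 bases was 1.01 log2 units above the other cultures in that library. FLVCR2, a relative of the heme exporter FLVCR1, also rose in the 3 lines, most in ZR-75-30 (13.4 ± 3.0 to 28.3 ± 3.5, log2 change 1.04, SE 0.20), and its calls in MDA-MB-175 and HCC1500 (0.49, SE 0.15, without replicate 3) were lost without some single cultures. FLVCR1 itself fell in ZR-75-30 (287 ± 6 to 173 ± 12, log2 change -0.72, SE 0.06). Of the genes of this group, 3 rose and 1 fell of 9 tested in MDA-MB-175, 3 rose and 3 fell of 8 in ZR-75-30, and 2 rose of 8 in HCC1500, or 3 rose and 3 fell there without replicate 3. As shares, 25.0% rose in HCC1500 (37.5% without replicate 3), against 7.46% and 20.9% of all tested genes, 37.5% in ZR-75-30, against 23.4%, and 33.3% in MDA-MB-175, against 11.9%. Those that fell were 11.1% in MDA-MB-175, against 13.7%, and 37.5% in ZR-75-30, against 22.7%, and in HCC1500 without replicate 3 they were 37.5%, against 37.7%.

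Of the regulators of ferritin gene transcription, MAFG and MAFK, small MAF proteins that pair with NRF2 or BACH1 on antioxidant response elements, rose in each line. MAFG went from 561 ± 13 to 1063 ± 40 in HCC1500 (log2 change 0.92, SE 0.07, adjusted p = 9.3e-05, or 0.90, SE 0.04, to 1047 ± 31 without replicate 3), from 214 ± 21 to 315 ± 14 in MDA-MB-175 (0.56, SE 0.07, adjusted p = 1.8e-05) and from 264 ± 12 to 325 ± 20 in ZR-75-30 (0.30, SE 0.06, adjusted p = 3.2e-04). MAFK had log2 changes of 0.47 (SE 0.07), 0.46 (SE 0.06) and 0.50 (SE 0.14, or 0.36, SE 0.05, without replicate 3). In each line 3 of the 5 genes of this list rose and none fell by this test, and in HCC1500 without replicate 3, 4 rose and 1 fell. That is 60.0% rising in each line, against 7.46% of all tested genes in HCC1500, 23.4% in ZR-75-30 and 11.9% in MDA-MB-175. The equal share did not come from the same genes. Beside MAFG and MAFK it counted NFE2L2 in MDA-MB-175 (log2 change 0.207, SE 0.041) and BACH1 in ZR-75-30 (0.302, SE 0.099). In ZR-75-30, NFE2L2 was not called (-0.045, SE 0.041). Without replicate 3 all 5 were called in HCC1500, where 58.5% of all tested genes were.

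Of the heme synthesis genes, ALAS1, the first and rate-limiting enzyme in most tissues, rose in MDA-MB-175 (409 ± 16 to 661 ± 32, log2 change 0.69, SE 0.05, adjusted p = 4.2e-08), whereas in HCC1500 its log2 change was -0.20 (SE 0.14, adjusted p = 0.336), or -0.34 (SE 0.05, adjusted p = 7.7e-06) without replicate 3. UROS fell in MDA-MB-175 (366 ± 15 to 300 ± 22) and ZR-75-30 (364 ± 14 to 260 ± 10), with log2 changes of -0.29 (SE 0.06) and -0.49 (SE 0.05). CPOX fell in MDA-MB-175 (-0.35, SE 0.07), and ALAD fell in ZR-75-30 (-0.44, SE 0.06) and HCC1500 (-0.40, SE 0.09, or -0.46, SE 0.05, without replicate 3), as did the mitochondrial transporter ABCB10 (-0.28, SE 0.07, and -0.39, SE 0.10, or -0.45, SE 0.07, without replicate 3). Of 11 genes, 1 rose and 3 fell both in MDA-MB-175 and in ZR-75-30, and 2 fell in HCC1500. The shares that fell were 27.3%, 27.3% and 18.2%, against 13.7%, 22.7% and 13.0% of all tested genes. Without replicate 3, 9 fell there (81.8%), where 37.7% of all genes were called lower.

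Among iron uptake genes outside the set, some moved alike in all lines and others in 1 or 2 of them. The metal transporter SLC39A8 (ZIP8) and the exocyst subunit EXOC6 fell in all 3 lines, with log2 changes of -0.41 (SE 0.08), -0.83 (SE 0.08) and -0.38 (SE 0.11) for SLC39A8 and of -0.25 (SE 0.05), -0.51 (SE 0.05) and -0.33 (SE 0.10) for EXOC6. Without replicate 3 the HCC1500 changes were -0.45 (SE 0.07) and -0.29 (SE 0.07). MCOLN1, the lysosomal channel that releases iron and other cations, rose in all 3, from 37.1 ± 3.8 to 74.2 ± 7.3 in ZR-75-30, from 241 ± 21 to 517 ± 191 in HCC1500 (or to 422 ± 24 without replicate 3) and from 97.8 ± 11.1 to 120 ± 9 in MDA-MB-175, where its call was lost without each of 4 single cultures. Of the STEAP family, most members of which are ferrireductases, STEAP4 rose in MDA-MB-175 (585 ± 43 to 1055 ± 27), and STEAP3 (59.8 ± 4.1 to 142 ± 6) and STEAP2 (94.1 ± 3.7 to 171 ± 15) rose in ZR-75-30, whereas STEAP2 fell in HCC1500 (64.3 ± 5.0 to 36.9 ± 5.9, or 38.8 ± 5.6 without replicate 3). STEAP1, named after its values were seen, rose in both MDA-MB-175 (78.5 ± 7.2 to 110 ± 8) and ZR-75-30 (21.9 ± 3.4 to 37.3 ± 6.2), and in HCC1500 its log2 change was -0.17 (SE 0.19, adjusted p = 0.599), or -0.35 (SE 0.13, adjusted p = 0.0276) without replicate 3.

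LCN2, a siderophore-binding lipocalin, rose in MDA-MB-175 from 151 ± 6 to 639 ± 19 (log2 change 2.07, SE 0.05, adjusted p = 1.7e-13), and from 0.562 ± 0.452 to 2.97 ± 2.15 in ZR-75-30 (1.22, SE 0.45, adjusted p = 0.0323), where the conditions overlapped at these few reads, and was too low to be tested in HCC1500. SLC22A17, the receptor of that lipocalin, fell in HCC1500 from 795 ± 37 to 421 ± 203 (log2 change -1.02, SE 0.26, adjusted p = 0.024), or to 320 ± 23 without replicate 3 (-1.31, SE 0.05, adjusted p = 1.7e-13). Of the uptake genes, 4 rose and 2 fell of 13 tested in MDA-MB-175, 7 rose and 2 fell of 12 in ZR-75-30, and 1 rose and 4 fell of 12 in HCC1500, or 1 and 6 without replicate 3. The shares that rose in the same order were 30.8%, 58.3% and 8.33% (also 8.33% without replicate 3), against 11.9%, 23.4% and 7.46% (20.9%) of all tested genes. Those that fell were 15.4%, 16.7% and 33.3%, against 13.7%, 22.7% and 13.0%, and without replicate 3 the 6 of 12 stood against 37.7%. In HCC1500 the calls of SLC22A17, SLC39A8, EXOC6, ABCB10 and MAFK were each lost when any single culture other than high glucose replicate 3 was left out, and that of EXOC6 also under median-of-ratios scaling and CPM.

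In the remaining lists, EPAS1, which encodes HIF-2α and whose mRNA carries an iron-responsive element in its 5′ UTR, rose in all 3 lines (187 ± 15 to 282 ± 38 in HCC1500, or to 301 ± 8 without replicate 3, 778 ± 19 to 968 ± 36 in ZR-75-30 and 3028 ± 158 to 4843 ± 85 in MDA-MB-175). The search pattern above did not match its canonical transcript. Of the 6 mRNAs listed as carrying such an element, 2 rose in MDA-MB-175, 2 rose and 2 fell in ZR-75-30, and 1 rose in HCC1500, or 3 rose and 3 fell without replicate 3. NEO1, a hepcidin pathway coreceptor, rose in HCC1500 from a low level (5.70 ± 1.53 to 14.4 ± 2.4, or 15.5 ± 1.1 without replicate 3) and fell in ZR-75-30 from a far higher one (758 ± 34 to 639 ± 30). In its list, iron export and its hormonal control, 1 of 4 tested genes rose in MDA-MB-175, 1 of 3 fell in ZR-75-30, and 1 rose and 1 fell of 3 in HCC1500.

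Of 19 genes of mitochondrial iron import and iron-sulfur assembly, 1 fell in MDA-MB-175 (FDXR, 107 ± 18 to 72.3 ± 8.8), 4 rose and 5 fell in ZR-75-30 (among them IBA57, 101 ± 10 to 60.2 ± 8.7), and 3 rose in HCC1500 (among them IBA57, 93.0 ± 6.0 to 125 ± 18, or 134 ± 8 without replicate 3), or 6 rose and 8 fell without replicate 3. Of 9 cytosolic iron-sulfur assembly genes, 1 fell in MDA-MB-175, 1 rose and 2 fell in ZR-75-30, and none was called by limma in HCC1500, where 0 had an unadjusted p under 0.05 and edgeR and DESeq2 called 0, against 5 that fell without replicate 3. Among 6 iron chaperones and turnover factors of the regulatory proteins, limma called 1 higher and 2 lower in ZR-75-30 and 0 in the other lines, where 2 in MDA-MB-175 and 0 in HCC1500 had an unadjusted p under 0.05, and edgeR and DESeq2 each called 1 in MDA-MB-175 and 0 in HCC1500. Without replicate 3, limma called 2 of the 6 lower in HCC1500.

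**Figure D5:**
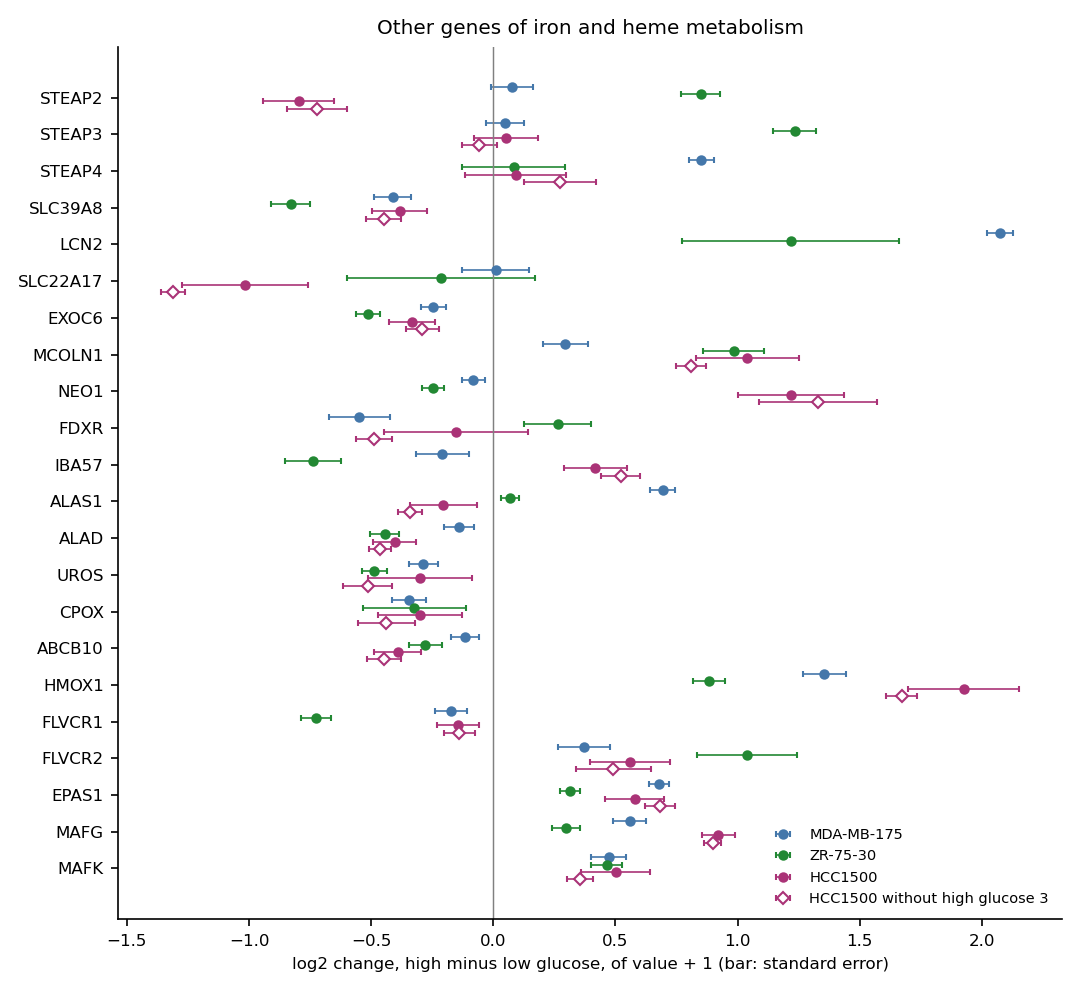
Log2 change from low to high glucose of value + 1 (x axis, points with standard error bars) of 22 other iron and heme genes named in the text, in each line and in HCC1500 without high glucose replicate 3 (open diamonds). HMOX1, FLVCR2, MCOLN1, EPAS1, MAFG and MAFK lie above 0 and SLC39A8 and EXOC6 below 0 in all lines, and LCN2 has no point in HCC1500, where it was too low to be tested.

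Whether a pathway gene responded differently between the lines was tested in 1 limma model of all 24 samples. The response differed for 25 of 83 genes (30.1%), where 29.3% of 18144 tested genes differed, and without HCC1500 high glucose replicate 3 for 47 genes (56.6%), where 48.6% of all did. Of the 22 genes in the plot of pathway changes, 15 differed both with and without that culture. These 22 were picked by their changes within lines in the same cultures, so nothing is read from this count. The adjusted p was 9.0e-08 for STEAP2, 4.0e-07 for STEAP3, 5.6e-07 for NEO1 and 2.1e-05 for ALAS1. For the genes called in the same direction in each line, the size of the response differed in MAFG (5.5e-05), HMOX1 (0.00232), SLC39A8 (0.00906), MCOLN1 (0.018), EPAS1 (0.0282) and FLVCR2 (0.0492). For EXOC6 the adjusted p was 0.052 with all cultures and 0.00602 without replicate 3.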

How the data were processed

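RNA from 24 cultures, 4 for each of 3 lines and 2 glucose conditions grouped by their labels, was sequenced, and 1 table of 18889 genes was used. The authors' methods name Trimmomatic, TopHat, hg19, Ensembl 70, DESeq2 and edgeR, whereas the submitters' processing notes name hg38 and edgeR, and the read counter is not given in the sources used here. The deposited values are a normalized signal, and 100.0% of them were whole multiples of 1 step per sample (tolerance 0.01 reads), from which whole reads were recovered (9140024 to 17998819 per sample). The rule behind the step was not identified.

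Genes reaching a value of 0.5 in 4 or more samples were tested as log2(value + 1) with limma 3.58.1 (moderated statistics with an intensity trend, two-sided, R 4.3.3), each line on its own 8 samples, and Benjamini-Hochberg adjusted p under 0.05 was called. Fold changes on this scale understate changes of low genes. Lines were compared over the 12 low glucose samples, and responses over all 24. Alternatives were other pseudocounts, no filter, other scaling, edgeR 4.0.16 and DESeq2 1.42.0 on recovered reads, sample weights, a fit of all samples, a block and leaving out each culture. On recovered reads edgeR called 3576 genes in HCC1500, 7397 in ZR-75-30 and 4402 in MDA-MB-175. Leaving out HCC1500 high glucose replicate 3 together with another scaling or test was chosen after seeing the data.

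The 10 genes and the wider lists were chosen with earlier results of these data known. Text names all 10 genes, ferritin pseudogenes averaging at least 10 in a line, pathway genes called in the same direction in all 3 lines, and in each line up to 5 rises and 5 falls among called pathway genes averaging at least 10 without overlap. Values of FLVCR1, ALAS1 and others in a further line are given for comparison. Coordinates are GRCh37 from GENCODE 44, which held 18183 of the gene IDs (96.3%). Scripts were tested on simulated data.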

Additional observations from a re-analysis of the deposited data

Results flagged for a closer look

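Within groups of 4 cultures, a culture stood far from the other 3 by Dixon's criterion in 17 of 140 groups of named genes tested, where chance flags about 1 in 20, and 8 of these were HCC1500 high glucose replicate 3. In that culture FTL was 15315 (others 5454 to 5986), FTH1 38458 (13828 to 14186), HMOX1 749 (365 to 376), MCOLN1 803 (408 to 451), SLC22A17 725 (293 to 335) and MAFK 307 (204 to 205), whereas SLC39A14 was 310 (463 to 485) and IREB2 285 (467 to 481). Elsewhere in HCC1500, low glucose replicate 4 had SLC11A2 at 478 (428 to 433) and IREB2 at 447 (466 to 469), and low glucose replicate 1 had SLC39A8 at 248 (216 to 220) and NEO1 at 7.98 (4.74 to 5.08). In MDA-MB-175, high glucose replicate 2 had ACO1 at 295 (281 to 283) and MCOLN1 at 133 (114 to 117), high glucose replicate 1 had HFE at 139 (152 to 154), high glucose replicate 3 had ALAS1 at 613 (674 to 683) and low glucose replicate 4 had MAFK at 251 (303 to 310).

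Without HCC1500 high glucose replicate 3, every high glucose culture was above every low glucose culture for TFRC in HCC1500 and below in ZR-75-30, and the log2 changes were 0.68 apart. This difference was not tested. For the named pathway genes the limma test of the difference between lines gave adjusted p-values of 9.0e-08 (STEAP2), 4.0e-07 (STEAP3), 5.6e-07 (NEO1), 2.1e-05 (ALAS1), 2.3e-05 (FLVCR1), 5.2e-05 (IBA57) and 5.5e-05 (MAFG). For the others past the threshold it gave 0.00232 (HMOX1), 0.005 (LCN2), 0.00906 (SLC39A8), 0.018 (MCOLN1), 0.0191 (STEAP4), 0.0282 (EPAS1), 0.0334 (ALAD) and 0.0492 (FLVCR2). All of these genes were picked by their changes within lines in the same cultures. For LCN2 the test set MDA-MB-175 against values of few reads, since it was near 0 in ZR-75-30 and too low to be tested alone in HCC1500.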

How the results depend on the processing

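The calls of FTL kept their direction and side of the threshold in every line under all alternatives run, as did those of FTH1 and SLC40A1 in ZR-75-30 and MDA-MB-175, and of TFRC and HFE in ZR-75-30. These genes were chosen on the same contrasts, so the kept calls are no further support for them. In MDA-MB-175, 3 of the 10 genes were called, against 5 with median-of-ratios scaling, edgeR, DESeq2 or sample weights, and 3 to 6 when single cultures were left out, the latter without low glucose replicate 4. Of all 17029 tested genes 4368 were called there, against 4402 with median-of-ratios scaling, 4402 with edgeR and 3929 with DESeq2. The fit of all 24 samples called 12 pathway genes there, against 22. In HCC1500, 3 of the 10 were called, against 6 with sample weights, 7 in the fit of all samples and 2 to 6 when single cultures were left out, the highest without high glucose replicate 3. Without that culture 7 were called with scaling to CPM, and 8 each with median-of-ratios scaling, edgeR or DESeq2. Of pathway genes in HCC1500, 18 were called, against 55 with sample weights, 28 in the fit of all samples and 8 to 56 without single cultures (8 without low glucose replicate 2, 8 to 10 without any other than high glucose replicate 3, and 56 without that one). Without it, 56 were called with scaling to CPM, 54 with median-of-ratios scaling, 54 with edgeR and 47 with DESeq2. The main fit called 58.5% of all tested genes in HCC1500 without that culture, against 20.5% with it. Shares of all genes called are not given here for every setting, so nothing is read from these counts. Responses differed between lines for 25 pathway genes, and for 21 to 47 without single cultures, the highest again without HCC1500 high glucose replicate 3. Scaling to CPM reversed TFRC (-0.086) and IREB2 (-0.059) between ZR-75-30 and MDA-MB-175. The share of calls that were higher moved from 36.4% to 49.2% in HCC1500 with median-of-ratios scaling, and with scaling to CPM from 39.4% to 28.1% (ZR-75-30 against MDA-MB-175) and from 59.7% to 70.3% (HCC1500 against ZR-75-30). The cause of these shifts was not tested.

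Deviations of same-numbered cultures correlated by 0.05, 0.04 and 0.02 on average (MDA-MB-175 first, then ZR-75-30, then HCC1500). Those of cultures with different numbers correlated by -0.02, -0.01 and -0.01 in the same order. Whether the replicate numbers pair the cultures is not given in the labels and was not tested. With the replicate number as a block, 1 of the 10 genes and 9 pathway genes were called in HCC1500, against 3 and 18 in the main fit. Of the 10 genes, FTL kept its call there, and SLC39A14 and ACO1 lost theirs. The share of all genes called with the block is not given here, so nothing is read from these counts. HCC1500 high glucose cultures were the shallower, at 9423472 to 12140912 reads.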
